A study of Mus musculus with 2 samples.

Results

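Dense windows of weak Ebf1 peaks on chromosomes 2, 4 and 13 were described in mature adipocytes grown from 3T3-L1, a line of mouse fibroblasts that becomes fat cells after induction with the hormone mixture MDI. The windows were chosen from the peak list itself, as 1 Mb windows that held at least 50 peaks and no peak with a deposited score of 55 or more. They ran from 175 to 178 Mb on chromosome 2, from 145 to 147 Mb on chromosome 4 and from 65 to 67 Mb on chromosome 13, on the mm9 genome build. A peak belonged to a window when its centre lay inside it. In all, 833 of the 34534 listed peaks did so, with 460 on chromosome 2, 219 on chromosome 4 and 154 on chromosome 13. The windows are compared with the 5 Mb on each side, which held 147, 190 and 72 peaks.

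The peaks come from 1 chromatin immunoprecipitation and sequencing (ChIP-seq) library, made with an anti-Ebf1 antibody from cells fixed with 1% formaldehyde 10 days after induction. The labels give no genetic change or further treatment. A whole cell extract made without antibody from the same kind of cells is described in the labels, and its values were not analysed here. There are therefore no replicates. Because the number of peaks and their scores chose the windows, all values below are descriptions with no test, and intervals cover counting error only. The list ranks each peak by a whole-number score of 3 to 597, whose meaning is not stated. It also holds a smaller whole number, called the second value here, which is not explained either. How many reads lie behind a peak is unknown.

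Ebf1 is a DNA-binding transcription factor best known for directing the development of B cells, and it is also needed for fat cells to form. Zinc finger genes encode proteins that grip DNA with repeated finger-like folds. Many of them carry a KRAB domain, which is known to recruit silencing complexes, and many are known to silence retrotransposons. In the mouse these genes are known to lie side by side in families that grew by repeated local duplication, so that neighbouring copies resemble each other. How the dense windows relate to such families was the question. Peaks could not be placed on genes, because the gene table at hand is of GRCm38.p6, another build. The families on the 3 chromosomes are therefore described by gene order and by promoter sequence alone. Whether these families lie inside the windows, and whether single peaks fall on their genes, was not analysed here.

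Zinc finger genes were recognised by symbol or synonym among the protein-coding genes of the RefSeq table. The longest run was sought over each whole chromosome, so it need not lie in the dense window. Chromosome 13 had the longest run of neighbouring zinc finger genes of any chromosome, with 26 in a row from Zfp712 to Gm10037, between Ptdss1, a phosphatidylserine synthase gene, and BC048507. This run includes Rsl1, Rslcan18 and other genes with Rslcan synonyms. Rsl1 is known as a repressor of sex-limited genes in liver. Chromosome 4 had a run of 17, from Zfp990 to Zfp933, between Gm42346 and Miip, allowing 1 other gene between neighbours. By that rule chromosome 17, which holds none of the windows, had a longer run of 18, and chromosome 7 had one of 15. The run on chromosome 4 includes Zfp980, Zfp987, Zfp600, Zfp992, Zfp981, Zfp993 and Rex2. On chromosome 2 the same rule found only Zfp64, Tshz2 and Zfp217, which lie between Sall4 and Bcas1.

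The family near the end of chromosome 2 was interrupted by genes that carry only a Gm number, and a zinc finger gene cannot be told from such a symbol. With up to 5 other genes allowed between neighbours, a setting chosen after the gene order was seen, 9 zinc finger genes formed a run there. They were Zfp968, Zfp965, Zfp966, Zfp967, Zfp973, Zfp970, Zfp972, Zfp971 and Zfp931, which ended next to Phactr3. Within the run stood 17 other genes, 16 of them with a Gm number. Of the 1782 protein-coding genes of chromosome 2, 1688 came before the run and 68 after it. With the same setting the run on chromosome 4 held the same number, 17, with 149 genes after it. The run on chromosome 13 then began at Zfp640 and held 27. The longest runs of chromosomes 17, 7 and 6, which hold none of the windows, were then 24, 15 and 10, so chromosome 2 ranked behind them. Long runs of zinc finger genes were thus not limited to chromosomes with a dense window. Before Zfp640 stood a block of 12 genes, back to Zfp369, the nearest zinc finger gene on that side, most of them with Gm numbers. This block is described separately.

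Promoters of a few of these genes are shown to let close copies be read base by base. They are among the most similar ones, and most of them hold the motif marked below, unlike most promoters of the runs. Zfp965 and Zfp971, at 97.2% identity to each other, are not shown, whereas Zfp970, at 95.2% to its closest match, is. The promoters shown do not stand for all runs. None comes from the chromosome 13 run, whose promoters resembled each other less closely. Each sequence is from RefSeq on GRCm38.p6, 120 bases long, and runs 5′ to 3′ on the gene's strand. All but the chromosome 4 one start 250 bases before a listed start of the gene. Capitals mark CCCNNGGG, the core of the known Ebf site, which reads the same on both strands. Positions on GRCm38.p6 cannot be set against the mm9 positions of the peaks. The promoters of Zfp968 (chr2:175372186-175372305, plus strand), Zfp973 (chr2:176670272-176670391, plus strand), Zfp966 (chr2:175931231-175931350, minus strand) and Zfp970 (chr2:177464492-177464611, plus strand) hold the motif in one shared stretch:
Zfp968: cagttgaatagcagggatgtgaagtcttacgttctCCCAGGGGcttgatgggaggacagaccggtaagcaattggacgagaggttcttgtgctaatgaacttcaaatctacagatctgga
Zfp973: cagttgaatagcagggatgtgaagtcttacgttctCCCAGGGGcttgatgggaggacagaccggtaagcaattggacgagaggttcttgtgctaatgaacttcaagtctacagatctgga
Zfp966: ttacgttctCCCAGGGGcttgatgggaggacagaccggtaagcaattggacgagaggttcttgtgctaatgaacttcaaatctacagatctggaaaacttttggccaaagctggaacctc
Zfp970: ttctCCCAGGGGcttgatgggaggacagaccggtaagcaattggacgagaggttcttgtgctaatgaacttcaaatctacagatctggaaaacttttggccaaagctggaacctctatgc
The promoter of Gm4724 (chr2:175435908-175436027, minus strand) held no match to the motif. Its sequence begins past the place where the motif stands in those above, so that place was not covered. Its 250 bases before the start were the same in 4 genes, Gm4724, Gm2026, Gm14434 and Gm14308:
Gm4724: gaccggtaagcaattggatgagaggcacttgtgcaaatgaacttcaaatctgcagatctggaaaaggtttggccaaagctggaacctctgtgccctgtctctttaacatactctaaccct

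On chromosome 4 the closest pair was Zfp600 and Rex2. The 235 bases next to their starts were identical, and the last 120 of them are shown once, from Zfp600 (chr4:146156707-146156826, plus strand). On chromosome 13 the closest pair stood in the block of genes before the run, Gm31714 (chr13:65415253-65415372, minus strand) and Gm46425 (chr13:65950339-65950458, plus strand). Zfp600 and Gm31714 each had another promoter, not shown, whose closest match in its block was 48% and 46% identical. That of Gm31714 lacks the motif. Both promoters shown from chromosome 13 hold it:
Zfp600: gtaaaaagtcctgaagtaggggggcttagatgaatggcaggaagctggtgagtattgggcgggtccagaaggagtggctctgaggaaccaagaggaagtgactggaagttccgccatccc
Gm31714: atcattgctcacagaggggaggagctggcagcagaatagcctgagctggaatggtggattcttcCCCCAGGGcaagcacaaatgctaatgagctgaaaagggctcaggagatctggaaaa
Gm46425: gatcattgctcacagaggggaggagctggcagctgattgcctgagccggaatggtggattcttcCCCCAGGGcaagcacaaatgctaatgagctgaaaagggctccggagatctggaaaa

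The 4 blocks of genes differed widely in how much of their promoter sequence also stood in promoters of other genes, inside the block or elsewhere. Each 300-base promoter was cut into all of its 36-base words, and a word counted as shared when it also stood in a promoter of another gene that did not overlap. A promoter with at least 50% shared words is called a near copy here. Of all 32851 promoters in the table, 4.13% were near copies. In the run on chromosome 2 it was 23 of 25, with a median of 100% shared words, and in 13 of the 25 every word was shared. The exceptions were Zfp972 at 0% and Gm14428 at 2.26%.

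The other blocks had fewer near copies. The run on chromosome 4 had 4 of 17, from Zfp987, Zfp600, Rex2 and Zfp534, with a median of 26.4% shared words. The block before the chromosome 13 run had 4 of 12, from Gm31714, Gm53057, Gm46425 and Gm10324, with a median of 36.8%. The chromosome 13 run itself had 1 of 26, Zfp640 with 55.1%. The next highest there was Rsl1 with 18.9%. The counts on chromosome 4 and in the block before the chromosome 13 run depended on word length, with 7 and 8 near copies for 25-base words and 2 and 2 for 50-base words. Among promoters of all other zinc finger genes, 17 of 451 were near copies.

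**Figure D1:**
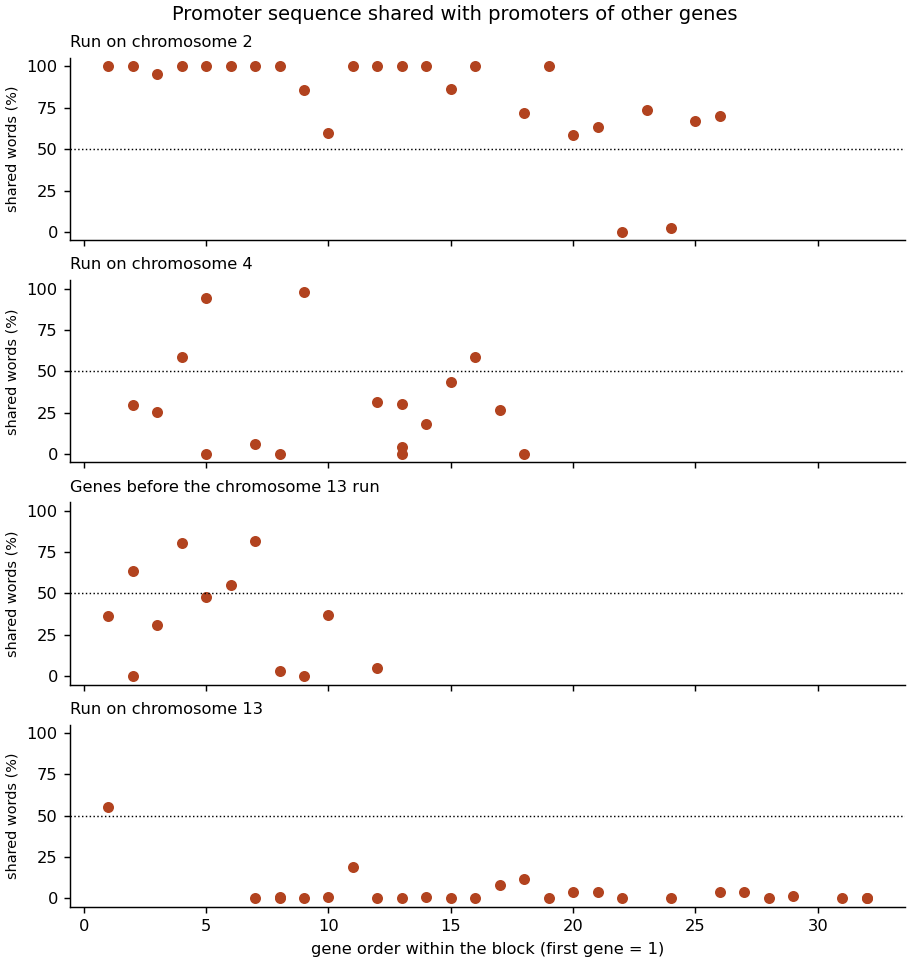
Percent of a promoter's 36-base words that also stand in a promoter of another gene (vertical axis) against gene order within each block (horizontal axis). Each point is 1 promoter, some genes have several, and the dotted line marks 50%. In the chromosome 2 run 23 of 25 points lie above the line, and in the chromosome 13 run 1 of 26 does.

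Identity told the same order. Over the 250 bases before the start, each promoter was compared with the most similar promoter of another gene in its block. The median identity was 94.4% on chromosome 2, 84.8% on chromosome 4, 86.4% in the block before the chromosome 13 run and 64.0% in that run. Values under 50%, found in each block, came from pairs with no evident likeness. Zfp640, a near copy by shared words, was among them, with 46.8% to its closest promoter in the chromosome 13 run. Zfp966 and Zfp967 were the same over all 250 bases, and Zfp968 and Zfp973 were 99.6% identical.

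The motif CCCNNGGG stood in 13.7% of all promoters. It was present in 8 of 25 promoters of the chromosome 2 run and in 6 of 12 of the block before the chromosome 13 run. None of the 17 promoters of the chromosome 4 run and none of the 26 of the chromosome 13 run held it. Near copies share their letters, so these counts are not independent of each other. In the chromosome 2 run all matches stood 196 to 246 bases before the listed start, towards the outer end of the sequence used. A copy whose sequence begins past the place of the motif, as in Gm4724, is counted as without it. The counts thus depend on the listed starts, and the place of the motif was not covered in every copy. A match describes the letters and is not a binding site.

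Turning to the peaks, the chromosome 2 window was the densest. It held 153 peaks per Mb (exact Poisson 95% interval 140 to 168), against 17.0 per Mb (14.3 to 19.9) in its flanks, a ratio of 9.04. The chromosome 4 window held 109.5 peaks per Mb (95.5 to 125), against 19 (16.4 to 21.9), a ratio of 5.76. The chromosome 13 window held 77.0 per Mb (65.3 to 90.2), against 7.20 (5.63 to 9.07), a ratio of 10.7. They made up 11.7% of all peaks on chromosome 4 and 12.6% of those on chromosome 13, and on chromosome 2 they were 460 of 3539. Without peaks that scored below 13, the list median, the ratios were 6.43, 2.41 and 6.35. The densities are what chose the windows.

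The single 1 Mb windows ranged from 69 peaks, at 65 to 66 Mb on chromosome 13, to 208, at 177 to 178 Mb on chromosome 2. The other two windows on chromosome 2 held 114 and 138 peaks. Chromosome 4 held 86 and 133, and the second window of chromosome 13 held 85. Among the 28 flank windows with a peak, the highest number was 54, at 174 to 175 Mb on chromosome 2. That window lay just outside the rule, since 1 of its peaks scored 60. At 147 to 148 Mb on chromosome 4 there were 42 peaks, too few for the rule, with 3 of them at 55 or more. On chromosome 13 the neighbouring windows held 6 and 5 peaks.

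**Figure D2:**
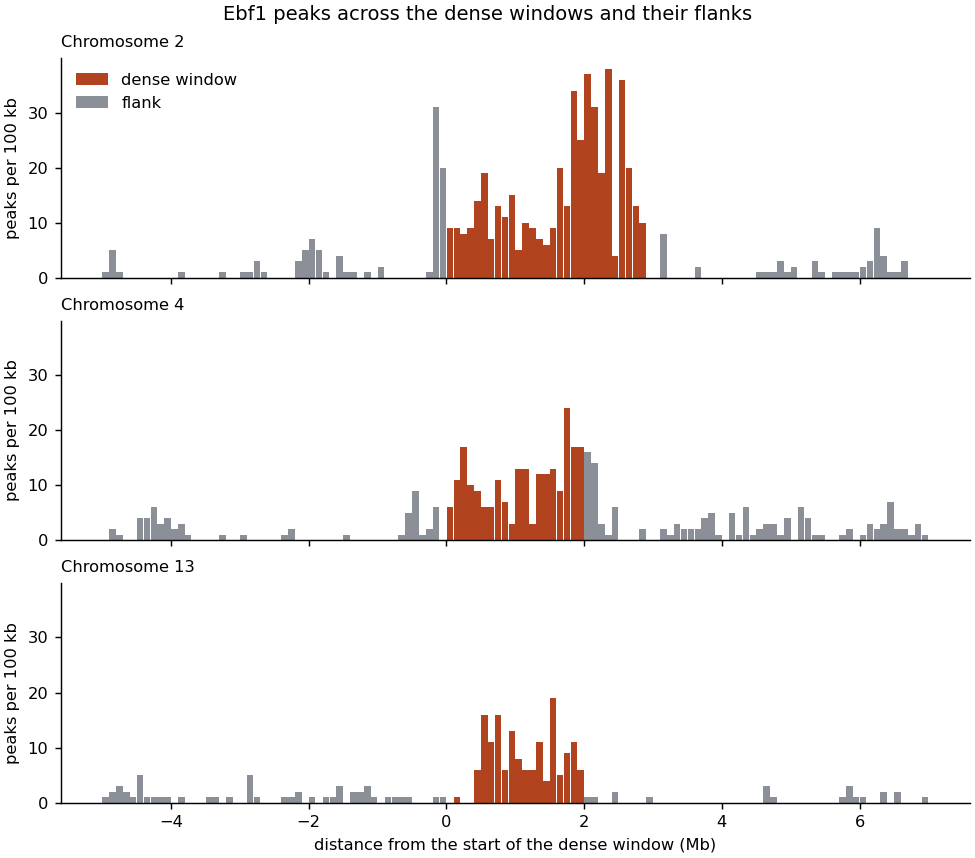
Ebf1 peaks per 100 kb (vertical axis) against the distance from the start of each dense window in Mb (horizontal axis), with the windows in red and the 5 Mb flanks in grey. The chromosome 2 panel ends with the last peak of the chromosome. The dense stretch on chromosome 2 starts 0.2 Mb before the window, that on chromosome 4 runs 0.3 Mb past it, and that on chromosome 13 starts 0.4 Mb inside it.

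In 100 kb bins the dense stretches did not follow the window bounds. A stretch was taken as all neighbouring bins of at least 3 peaks. On chromosome 2 it reached from 174.8 to 177.9 Mb and held 511 peaks in 31 bins. Its first bin held 31 peaks, and the bin before it held 1. After the last member the next peak was 229 kb away. On chromosome 4 the stretch reached from 145 to 147.3 Mb with 252 peaks, and the peak before the first member was 134 kb away. On chromosome 13 it was shorter, from 65.4 to 67 Mb with 153 peaks. The remaining member there stood alone at 65108226 to 65108600, followed by 330.5 kb without a peak.

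Peaks filled the windows rather than gathering in a few bins. On chromosome 2, 28 of 30 bins held at least 5 peaks, with a median of 12 and a highest value of 38. On chromosome 4 it was 18 of 20 bins, with a median of 11 and a range of 3 to 24. On chromosome 13 it was 15 of 20, with a median of 6 and a highest value of 19. In the flanks 8 of 87, 12 of 100 and 2 of 100 bins held as many. Density also varied within chromosome 2. The bins from 175 to 176.6 Mb held 5 to 19 peaks each, whereas the bin at 177.3 Mb held 38 and the next one held 4.

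Scores in the windows were low. The rule excludes scores of 55 or more and sets no limit on lower ones, though the values are not independent of it. None of the 833 peaks reached 55, which 10.2% of the whole list did. The highest scores were 45, 44 and 31 on chromosomes 2, 4 and 13. The quartiles were 9, 11 and 15 on chromosome 2, 8, 10 and 13 on chromosome 4, and 8, 10 and 14 on chromosome 13. In the flanks the medians were 14, 15 and 13. A score of 26, the upper quartile of the list, was reached by 27 of the 833 peaks, or 3.24% (exact Clopper-Pearson 95% interval 2.15 to 4.68). Of the 409 flank peaks 112 reached it, or 27.4% (23.1 to 32.0). These include 41 flank peaks of 55 or more, which the rule bars from the windows, so part of the contrast is built in.

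The lower end of the scores was close to that of the flanks. The lower quartile was 8 over all windows, 9 in the flanks and 8 in the whole list. Together the windows held 2.41% of the listed peaks and 1.20% of the summed score. Strong peaks were present nearby. In the flanks of chromosomes 2 and 4, 15 of 147 and 23 of 190 peaks reached 55, and 3 of 72 did around chromosome 13.

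**Figure D3:**
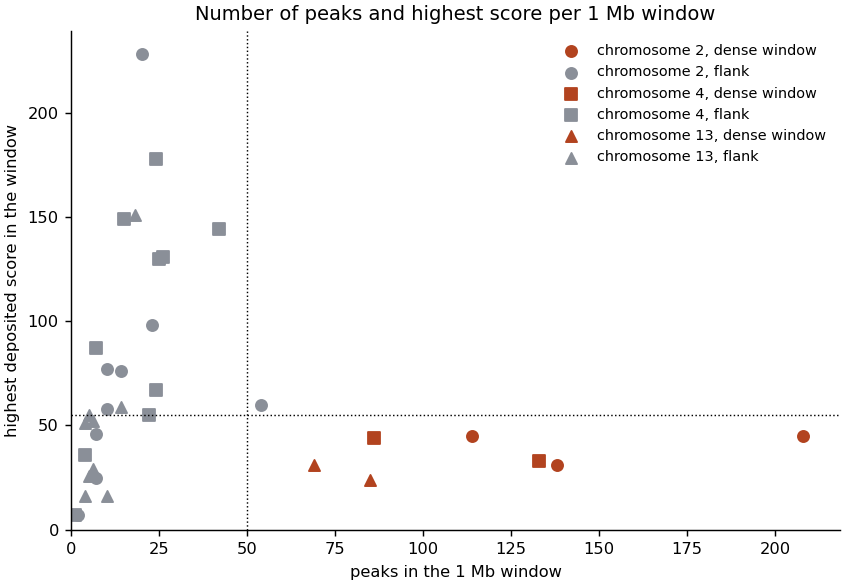
Highest deposited score (vertical axis) against the number of peaks (horizontal axis) in each 1 Mb window, with dense windows in red and flank windows in grey, and a symbol for each chromosome. Dotted lines mark the rule's limits of 50 peaks and a score of 55. The 7 dense windows lie between 69 and 208 peaks with highest scores of 24 to 45, and 1 flank window, with 54 peaks and a score of 60, lies just outside the rule.

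The strongest members stood far down the ranking of the list. On chromosome 2 a pair shared the score of 45, at 175790526 to 175791275 and at 177064151 to 177064800, and 4516 peaks of the list scored higher. The first was 750 bp wide with a second value of 6. The other was 650 bp wide with a second value of 10, the highest in the windows. On chromosome 4 the highest score, 44, belonged to the peak from 145039076 to 145039650, and the next 2 lay 20.5 and 85.9 kb from it. On chromosome 13 the peak from 65624476 to 65624950 scored 31, and the next, with 25, lay 3.2 kb away.

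Width followed score, so it is not a separate result. The median width was 250 bp on chromosomes 2 and 13 and 225 bp on chromosome 4, against 325 bp over all flanks. The narrowest width, 200 bp, was that of 31.6% of members, 21.0% of flank peaks and 20.3% of the list. At single widths up to 350 bp, however, the median score of members was no lower than that of all other peaks on chromosomes 1 to 19 and X. Against flank peaks alone the exception was 325 bp, with 14 in members and 14.5 in the flanks. The median score at 200 bp was 8 among 263 members, 7 in 86 flank peaks and 7 in 6651 other peaks. At 250 bp it was 11, 10 and 9, and at 300 bp it was 13, 13 and 12. From 400 bp upward members were few and scored lower, with 19 against 23 in other peaks at 400 bp and 24 against 35 at 475 bp. With widths matched over all members, the mean score was 0.942 of that of other peaks.

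The second value was higher in the windows than in their flanks or in other peaks at most widths, with exceptions among wider peaks. At 375 bp its mean was 2.30 in 33 members and 2.36 in 22 flank peaks, and at 450 bp it was 1.67 in 6 members, 2.18 in the flanks and 2.02 in other peaks. Among peaks 200 bp wide its mean was 1.06 in the windows, 0.802 in the flanks and 0.798 in all other peaks on chromosomes 1 to 19 and X. At 250 bp it was 1.5, 1.0 and 1.05, and at 300 bp it was 2.21, 1.81 and 1.29. With widths matched to those of the members, the mean was 1.28 times that of the flanks on chromosome 2, 1.27 times on chromosome 4 and 1.76 times on chromosome 13. Against all other peaks the ratios were 1.62, 1.23 and 1.21, so the order of the 3 chromosomes changed with the reference. Since the peaks were not drawn independently, no test of these ratios was made.

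This excess was uneven. Against all other peaks of the same width, the window at 177 to 178 Mb on chromosome 2 stood at 1.94 times, and those at 175 to 176 and 176 to 177 Mb at 1.21 and 1.46 times. The chromosome 4 windows stood at 1.25 and 1.23 times, and the chromosome 13 windows at 1.10 and 1.29 times. The most crowded window thus had the highest second value. Among the other 6 the order did not follow the number of peaks, since the window with 133 peaks on chromosome 4 stood below the one with 85 on chromosome 13. A second value of 0 was found at 17.6% of members on chromosome 2, 32.4% on chromosome 4 and 27.3% on chromosome 13. In their flanks it was 21.8%, 34.2% and 38.9%.

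**Figure D4:**
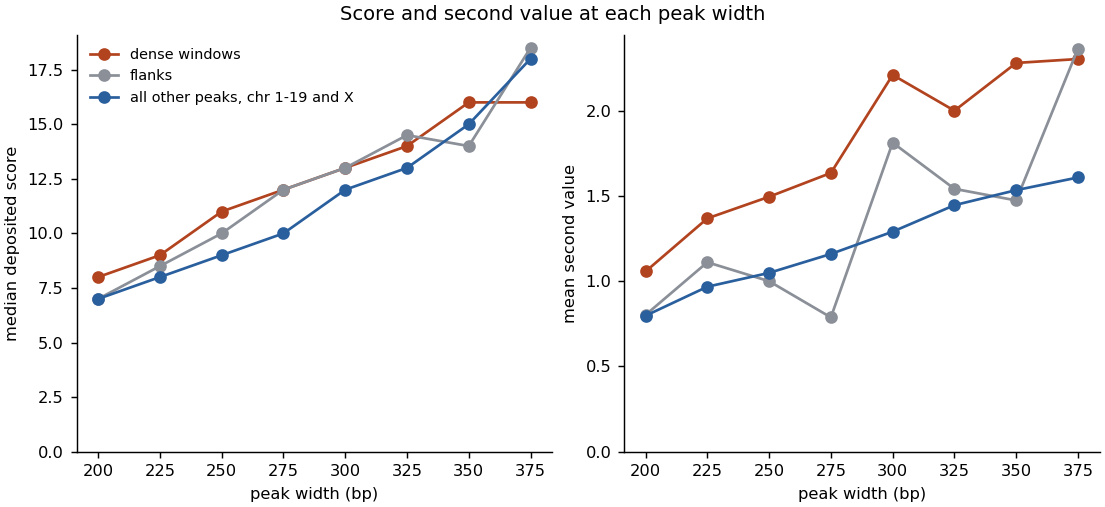
Median deposited score (left) and mean second value (right) against peak width in bp, for the dense windows in red, their flanks in grey and all other peaks on chromosomes 1 to 19 and X in blue. Points are single widths from 200 to 375 bp. The red score line lies within 2 of the blue one throughout, and the red second values lie above the blue ones at every width shown. The flank points rest on 16 to 86 peaks each.

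Neighbouring peaks lay a few kb apart. The median distance between centres was 2.89 kb on chromosome 2, 4.05 kb on chromosome 4 and 4.4 kb on chromosome 13. In the flanks before and after, it was 5.98 and 24.4 kb on chromosome 2, 18.2 and 15.2 kb on chromosome 4, and 52.9 and 107 kb on chromosome 13. Distances of at most 1 kb made up 24.0%, 14.7% and 17.0% of those in the windows. On chromosome 2 the flank before the window came close, with 20.8%. The longest gaps were 81.0 kb on chromosome 2, from 177397400 to 177478176, and 107 kb on chromosome 4, from 145752525 to 145858726.

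Joined where centres lay within 0.5 of 25 kb, members formed 46 clusters on chromosome 2, 35 on chromosome 4 and 33 on chromosome 13, and 7, 12 and 9 peaks stood alone. Clusters of at least 10 peaks numbered 12, 7 and 1, and held 307, 86 and 13 peaks. On chromosome 4 the largest had 21 peaks with a median score of 10 and spanned 79.1 kb, from 146701326 to 146780375. On chromosome 13 it had 13 peaks with a median score of 12 and spanned 32.5 kb, from 66531576 to 66564075. On chromosome 2 it had 70 peaks, from 176889926 to 177096100. Its mean second value was 2.61, against 1.14 and 1.46 in the largest clusters of chromosomes 4 and 13. The flanks had 2 clusters of at least 10 peaks, both before the chromosome 2 window. The larger of them, from 174796001 to 174866725 with 26 peaks, began the dense stretch.

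Copies of a duplicated unit can place peaks at recurring distances. For all pairs of members up to 500 kb apart, distances were counted in steps of 25 bp. On chromosome 2 there were 40093 pairs over 20000 steps, or 2.00 per step, and the fullest step held 10. On chromosome 4 the mean was 0.508 and the fullest step held 5. On chromosome 13 the mean was 0.304 and the fullest step held 5. No single step therefore held more than 10 pairs. Whether this count can find copies that have diverged was not tested. In the flanks, with 45 to 1755 pairs, the fullest steps held 1 to 5.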

How the data were processed

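One list of Ebf1 peaks from 3T3-L1 adipocytes was used, as deposited. The submitters' processing notes name mm9 as the build and SAMtools as a tool. Not given in the sources used here are the peak caller, its threshold, the treatment of reads that match several places and the use of the whole cell extract. The deposited score and the second value are whole numbers of unstated meaning, used only within this list. Positions were read as 1-based. Windows, flanks, clusters and distances were computed from peak centres with Python 3.11.15, numpy 2.4.6, pandas 2.3.3 and scipy 1.17.1, and figures were drawn with matplotlib 3.10.9. Flanks end at the last peak of a chromosome. Matched means weight each width as among the members, of which 457, 218 and 153 on chromosomes 2, 4 and 13 had a flank peak of the same width.

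The windows and lists were chosen with earlier results of these data known. Named peaks were the strongest, the largest cluster and the longest gap of each window, and the windows beside it. Named genes were the ends and neighbours of each run and up to 8 members with a symbol other than a Gm number. Genes named for their promoters, and the runs with up to 5 other genes between, were chosen after values were seen. No protein sequences were used, so fingers were not counted. Promoters span 250 bases before to 50 after a listed start, and some genes have several. That start was the boundary given for the gene in 19827 of 32850 promoters checked (60.4%). In the 4 blocks, 25 of 26, 14 of 18, 24 of 32 and 11 of 12 genes had a promoter. The distance count and the word count were tested on simulated data. For the distance count the simulated copies were exact and evenly spaced, so copies that had diverged were not covered. The motif in peaks was not run, as no mm9 sequence was used.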

Additional observations from a re-analysis of the deposited data

How the results depend on the processing

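Of 125 alternative values 77 stayed within 1.5 times (counts and ratios) or within the exact 95% interval (medians and shares), and 48 moved. Any overlap in place of centres changed nothing. At a score of 13 or more, by construction, 178, 56 and 47 peaks remained on chromosomes 2, 4 and 13, with median scores of 17, 16 and 15, median widths of 325, 350 and 350 bp, median distances of 5412.5, 17087.5 and 22669 bp, largest clusters of 22, 4 and 3, and fullest steps of 4, 2 and 2. The density ratio fell to 2.41 on chromosome 4 and 6.35 on chromosome 13, and 18.75% and 19.8% of flank peaks on chromosomes 2 and 4 then reached 55. Without the narrowest peaks median scores were 13 and 12 on chromosomes 2 and 4, median widths 275, 275 and 300 bp, and median distances 4100, 6412.5 and 6675 bp, and chromosome 4 kept 137 peaks, a largest cluster of 9 and a fullest step of 3. Largest clusters were 22, 8 and 7 at 5 kb and 187, 39 and 22 at 25 kb joining, and the fullest 100 bp steps held 25, 11 and 9 pairs. Leaving the dense stretch out of the flanks, chosen after seeing the bins, gave density ratios of 13.5, 6.77 and 10.7. The longest run on chromosome 2 held 3 genes with at most 1 or no other gene between neighbours and 9 others with up to 5. Near copies numbered 7 and 8 with 25-base and 2 and 2 with 50-base words in the chromosome 4 run and the block before the chromosome 13 run, and 0 with 50-base words in the chromosome 13 run. The rule on fingers per protein was not run. No paired analysis was possible because 1 library had values and none could be left out. Without a known depth, how many of the weak peaks would recur in another library cannot be said. The causes of the moves other than those by construction were not tested.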
